A study of Mustela putorius furo and Mus musculus with 4 samples.

Results

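Regional identity transcription factors are the homeodomain and nuclear receptor proteins that tell cells of the embryonic forebrain where they lie, and 9 of them, Emx1, Emx2, Lhx2, Pax6, Otx1, Otx2, Meis2, Nr2f1 and Nr2f2, were followed here in cultured ferret and mouse astrocytes. The 9 genes were chosen by name, and all 9 were found among the 13373 gene symbols shared by both species. RNA was sequenced from 2 ferret libraries and 2 mouse libraries of primary astrocytes from neonatal cerebral cortex. Ferrets (Mustela putorius furo) were taken at postnatal day 1 and ICR mice between postnatal days 1 and 3. Cells of 1 ferret pup were spread over 4 flasks, whereas cells of 4 mouse pups were pooled in 1 flask. Both cultures grew for 14 days in 10% serum, spent 12 h on a shaker at 200 rpm that removed loosely attached cells, were replated, and were moved on day 3 to a serum-free medium with heparin-binding EGF-like growth factor until harvest on day 7. The sources do not say whether the duplicate libraries came from separate cultures, so the p-values measure only the spread between these libraries, which may be technical. Each value is an FPKM, the number of fragments scaled to the length of the exons and to the number of mapped fragments of the library, which each species received on its own gene annotation.

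In the developing forebrain these factors are laid out in gradients. Emx2 is highest in the caudal and medial cortex, Pax6 in the rostral and lateral cortex, and Nr2f1 (COUP-TFI) in the caudal and lateral cortex, and together they set the positions of cortical areas. Lhx2 selects cortical fate over the cortical hem, and it also restrains the switch of progenitors from neurons to astrocytes. Otx2 is needed for the forebrain as a whole and later marks the choroid plexus, and Otx1 is made by cortical progenitors and deep-layer neurons. Meis2 is best known from the ventral forebrain and its olfactory bulb neurons. Nr2f2 (COUP-TFII) marks caudal ventral forebrain, veins and many mesenchymal cells.

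All but Nr2f1 and Nr2f2 bind DNA through a homeodomain, whose recognition helix reads the target site. The mouse coding sequence of this helix is shown because it separates the members into classes that the expression values below cut across. Each sequence was found as the only in-frame run of codons for tryptophan, phenylalanine, any residue and asparagine followed by arginine or alanine and then arginine, and was taken from the GENCODE M21 transcripts with 12 bases on either side. Capitals mark the free codon, whose residue helps to choose the bases that are bound.

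Emx1: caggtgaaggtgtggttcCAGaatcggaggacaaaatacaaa

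Emx2: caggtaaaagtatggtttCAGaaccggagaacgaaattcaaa

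Lhx2: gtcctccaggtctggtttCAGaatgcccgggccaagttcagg

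Pax6: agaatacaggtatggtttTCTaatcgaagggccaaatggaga

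Otx1: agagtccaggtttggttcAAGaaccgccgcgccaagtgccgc

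Otx2: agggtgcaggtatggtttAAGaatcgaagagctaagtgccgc

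Meis2: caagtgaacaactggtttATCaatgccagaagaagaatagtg

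Emx1, Emx2 and Lhx2 carry a glutamine codon at this place, Otx1 and Otx2 a lysine codon, Pax6 a serine codon and Meis2 an isoleucine codon. Every one of these 7 stretches spans an exon junction. On GRCm38 the stretch of Emx2 runs over chr19:59461844-59463918 and that of Pax6 over chr2:105692268-105692502, both on the plus strand, and that of Meis2 over chr2:115868776-115921685 on the minus strand, introns included. Nr2f1 and Nr2f2 bind DNA through zinc fingers instead. The codons of the first finger that read the half-site are shown in capitals for these paralogs, which stood at unlike levels in both species.

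Nr2f1: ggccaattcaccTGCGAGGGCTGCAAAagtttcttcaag

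Nr2f2: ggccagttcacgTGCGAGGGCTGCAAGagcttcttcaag

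The stretch of Nr2f1 lies at chr13:78198250-78198288 and that of Nr2f2 at chr7:70360018-70360056, each in a single exon on the minus strand of GRCm38. The paralogs are close in sequence but could be told apart by reads. The mouse coding sequences of Nr2f1 and Nr2f2 were identical at 83.6% of 1224 aligned bases, and their protein-coding transcripts shared 10 windows of 50 bases and 0 windows of 100 bases. Otx1 and Otx2 were identical at 75.9% of 838 aligned bases and Emx1 and Emx2 at 71.4% of 725, and neither pair shared a window of 50 bases. A ferret genome of the build used was not analysed here.

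The mouse genes lie on 7 chromosomes of GRCm38. Emx1 is at chr6:85187438-85204462, Emx2 at chr19:59458372-59465357, Lhx2 at chr2:38339281-38369733 and Pax6 at chr2:105668900-105697364, all on the plus strand. Otx1 is at chr11:21994764-22002897, Otx2 at chr14:48657677-48673819, Meis2 at chr2:115863064-116065839, Nr2f1 at chr13:78188973-78199757 and Nr2f2 at chr7:70351944-70366735, all on the minus strand. Antisense genes share exonic bases with 4 of them in the mouse annotation. The one with the highest level, A830082K12Rik, shares 123 exonic bases with Nr2f1 and had 19.9 and 22.5 FPKM in mouse libraries. Emx2os shares 264 bases with Emx2 and B130024G19Rik 643 bases with Nr2f2, and both stood under 0.4 FPKM in each mouse library, while Otx2os1 is listed at 0. The library kit keeps strand, but whether the quantification used it is not given in the sources used here, so reads of Nr2f1 and of its antisense partner may not have been told apart within the shared bases.

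Of the 9 genes, 7 had a mean above 1 FPKM in both species, and a different gene led in each. Nr2f1 led in ferret astrocytes at 39.4 ± 1.48 FPKM (SD, n = 2), followed by Emx2, Pax6, Lhx2, Meis2, Otx1, Nr2f2, Otx2 and Emx1. Meis2 led in mouse astrocytes at 45.4 ± 0.582 FPKM (SD, n = 2), followed by Nr2f1, Lhx2, Pax6, Nr2f2, Otx1, Emx2, Emx1 and Otx2. The ranges of the duplicate libraries overlapped only between Emx2 and Pax6 in the ferret order. In the mouse order they overlapped between Nr2f2 and Otx1 and between Otx1 and Emx2. These orders compare FPKM between genes, so unequal gene models enter them.

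**Figure D1:**
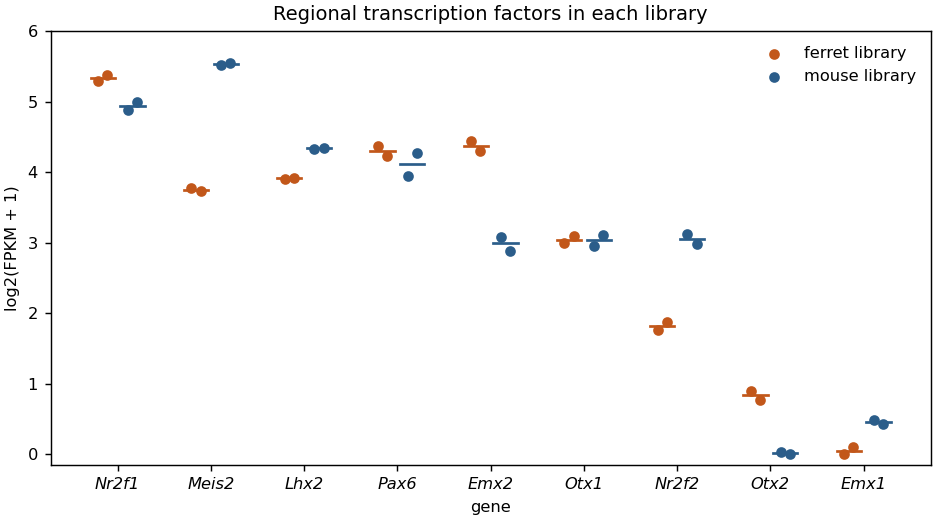
Level of each transcription factor as log2(FPKM + 1) in the 2 ferret (orange) and 2 mouse (blue) libraries, with points for libraries and lines for the log2 of the species mean plus 1. The ferret points of Emx2 lie above the mouse points, those of Meis2 and Nr2f2 lie below, and the points of Otx1 and Pax6 overlap.

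Between the species, Emx2 was higher and Meis2 and Nr2f2 were lower in ferret astrocytes, and the other 4 of the 7 members tested did not differ enough to be called. Differences are on the log2(FPKM + 1) scale, ferret minus mouse, from limma over 10204 genes with a mean of at least 1 FPKM in at least one species, and a gene is called where the p adjusted after Benjamini and Hochberg is under 0.05 and the log2 difference is beyond 1 in either direction. Emx1 and Otx2 were under the limit of 1 FPKM in both species. The 1 call in 7 for higher stands beside 13.1% of all genes called higher, and the 2 in 7 for lower beside 30.1% called lower, so these counts are near the background. The libraries of the species did not overlap for 7 of the 9 members, nor for 86.1% of all shared symbols. The median absolute log2 difference was 0.42 for the 7 members and 0.85 for all genes tested. At the adjusted p alone 5 of the 7 members passed, as did 88.6% of all genes. The summed FPKM of the shared symbols was lower in ferret libraries (227391 and 236543) than in mouse libraries (300465 and 308121), and the median log2 difference of all genes was -0.35. Over all gene rows of each annotation the gap was wider, with 238385 and 247918 in ferret and 525962 and 535899 in mouse libraries. Rescaling used the shared symbols only, and rescaling to the sums of all rows was not tried. With the libraries rescaled to the same sum of shared symbols, 46.9% of all calls were higher in ferret astrocytes, and 50.8% after quantile normalization, against 30.3% with FPKM as deposited.

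Emx2, the EMX homeobox gene of the caudal and medial cortex, had 20.7 and 18.7 FPKM in ferret libraries, against 7.49 and 6.40 in mouse libraries. Both ferret libraries lay above both mouse libraries, and the ferret mean was 2.84-fold higher. On the log2 scale Emx2 differed by 1.38 (SE 0.086, adjusted p = 1.56e-07 by limma), or 1.73 above the median of all genes. It stayed a call under the other scalings tried, at 1.74 after rescaling and 1.77 after quantile normalization. Ranked among the 13373 shared symbols within a library, a measure that no scaling between the species can change, Emx2 stood at the 81.9th and 79.7th percentile in ferret and at the 52.7th and 49.3rd in mouse astrocytes.

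Emx1, its paralog and a standard marker of the cortical lineage, was near the bottom in all 4 libraries. It is listed at 0 and 0.073 FPKM in ferret libraries and had 0.396 and 0.346 in mouse libraries. Ferret values lay below mouse values, by a log2 difference of -0.40 (SE 0.046, adjusted p = 0.0046 by limma) in a fit of all 13373 symbols, in which 22.9% of genes were called lower. With a pseudocount of 0.1 in place of 1, chosen after seeing the data, the difference was -1.84 (adjusted p = 0.017 by limma) and passed the limit for a call, as did 29.4% of all genes. Emx2 exceeded Emx1 in every library, by 18.9-fold and 18.5-fold in mouse libraries and by 256-fold in ferret replicate 2.

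Otx1 showed no difference as deposited. It had 7.0 and 7.51 FPKM in ferret libraries, against 6.76 and 7.62 in mouse libraries, so that the mouse values enclosed the ferret values. The log2 difference was 0.01 with a 95% confidence interval from -0.17 to 0.19 (adjusted p = 0.885 by limma), a smaller absolute difference than that of all but 0.686% of the genes tested. Rescaling the libraries moved it to 0.36 (adjusted p = 0.0023 by limma), still under the log2 difference of 1. Set against astrocyte genes within a library, the order of the species depended on the reference gene. As a share of Gfap, the intermediate filament gene of astrocytes, Otx1 stood at 0.473% and 0.493% in ferret and at the same values in mouse libraries. Against Sox9, a transcription factor of astrocytes, it was 41.1% and 41.1% in ferret and 20.7% and 22.1% in mouse libraries, and against Vim it was also higher in ferret libraries. Against Aldoc it was lower, with 0.432% and 0.441% in ferret and 0.738% and 0.751% in mouse libraries.

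Otx2, the paralog that marks choroid plexus and more caudal brain, was detected at a low level in ferret astrocytes. It had 0.858 and 0.711 FPKM in ferret libraries, against 0.024 in mouse replicate 1 and a listed 0 in mouse replicate 2. The groups did not overlap. Fitted over all 13373 symbols the log2 difference was 0.82 (SE 0.050, adjusted p = 0.0010 by limma), under the limit for a call that 9.98% of genes passed in this direction. With a pseudocount of 0.1, chosen after seeing the data, it was 2.98 (adjusted p = 0.0012 by limma) and was called higher, beside 14.7% of all genes. Read counts were not used here, so no counting interval is given for these low values. Of the choroid plexus genes, Ttr, which encodes the transport protein that dominates this tissue, stood at 0.0892 and 0.0299 FPKM in ferret and at 0.0846 and 0.0942 in mouse libraries. The 9 choroid plexus markers shared by the species summed to 6.66 and 6.53 FPKM in ferret and to 15.2 and 14.4 in mouse libraries. The largest part of the mouse sums was Msx1, at 9.82 and 9.19 FPKM, against 1.15 and 0.949 in ferret libraries. The members of this list went both ways. Of the 4 tested, 3 passed the limit of 1 FPKM in only one species, the called Folr1 and F5 among them. Folr1 is listed at 0 in both ferret libraries against 3.80 and 3.55 FPKM in mouse libraries, and Msx1 was also called lower, whereas F5 was called higher, with 3.38 and 3.46 FPKM in ferret and 0.583 and 0.595 in mouse libraries. Prlr, under the limit of 1 FPKM, had 0.583 and 0.824 FPKM in ferret and 0.0687 and 0.0127 in mouse libraries. The part of such cells in the Otx2 level was not tested.

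Lhx2, the LIM homeobox selector of cortical fate, was among the steadiest members between duplicates. Its FPKM was 14.0 and 14.2 in ferret libraries, against 19.1 and 19.3 in mouse libraries, and the groups did not overlap. The log2 difference was -0.42 (SE 0.062, adjusted p = 9.97e-05 by limma), which lay only 0.08 below the median of all genes. After rescaling it was -0.06 (adjusted p = 0.347) and after quantile normalization -0.02 (adjusted p = 0.667), both by limma. The rank of Lhx2 was also close, at the 74.3rd percentile in both ferret libraries and the 74.7th in both mouse libraries.

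Pax6, the paired box factor of rostral and lateral cortex and of radial glia, had 19.7 and 17.8 FPKM in ferret libraries, against 14.4 and 18.3 in mouse libraries. The groups overlapped, since mouse replicate 2 exceeded ferret replicate 2. The log2 difference was 0.19 with a 95% confidence interval from -0.04 to 0.42 (adjusted p = 0.101 by limma). It was 0.56 after rescaling (adjusted p = 0.0021 by limma), still under the limit for a call. As deposited, the difference moved with single libraries, at 0.35 without mouse replicate 2 (adjusted p = 0.020 by limma), 0.03 without mouse replicate 1 (adjusted p = 0.774 by limma) and 0.12 without ferret replicate 1 (adjusted p = 0.438 by limma). Pax6 had the widest spread between mouse duplicates of the 9 genes, 0.32 on the log2(FPKM + 1) scale, against a median of 0.065 for all genes tested.

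The 2 genes whose products pattern the cortex from opposite ends stood in a different ratio. Emx2 and Pax6 were level in ferret astrocytes, with a ratio of Emx2 to Pax6 of 1.05 in both libraries. In mouse astrocytes the ratio was 0.519 and 0.350. A ratio within a library is free of the scaling between species but not of the gene models. With 2 libraries per species the smallest two-sided p of an exact permutation test is 0.333, so the ratios are given as values with no test.

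Meis2, a homeobox factor of the TALE class that binds DNA beside PBX proteins, had the widest difference of the 7 members tested. Its FPKM was 12.6 and 12.3 in ferret libraries, against 45.0 and 45.8 in mouse libraries. Each mouse library exceeded each ferret library, and the mouse mean was 3.64-fold higher. On the log2 scale Meis2 differed by -1.78 (SE 0.060, adjusted p = 1.85e-09 by limma), or 1.43 below the median of all genes. It was -1.41 after rescaling and -1.40 after quantile normalization, both called. The rank of Meis2 was at the 72.1st and 71.0th percentile in ferret and at the 89.6th in both mouse libraries. Emx2 exceeded Meis2 by 1.64-fold and 1.52-fold in ferret libraries, whereas its ratio to Meis2 was 0.167 and 0.140 in mouse libraries.

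Nr2f1, the COUP-TF of caudal and lateral cortex, was at 38.3 and 40.4 FPKM in ferret libraries, against 28.4 and 30.8 in mouse libraries. The groups did not overlap, and the ferret mean was 1.33-fold higher. The log2 difference was 0.40 (SE 0.065, adjusted p = 2.35e-04 by limma), under the limit for a call. After rescaling it was 0.78 and after quantile normalization 0.77. The bases shared with A830082K12Rik may affect this value in the mouse, which was not tested.

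Nr2f2, the COUP-TF of ventral forebrain, veins and mesenchyme, had 2.39 and 2.67 FPKM in ferret libraries, against 7.71 and 6.88 in mouse libraries. Mouse values lay above ferret values, and the mouse mean was 2.88-fold higher. Its log2 difference was -1.23 (SE 0.084, adjusted p = 3.21e-07 by limma), or 0.88 below the median of all genes. It was -0.92 after rescaling and -0.82 after quantile normalization, so that Nr2f2 kept an adjusted p under 0.05 by limma but was no longer called. The ratio of Nr2f1 to Nr2f2 was 16.1 and 15.1 in ferret libraries, against 3.69 and 4.48 in mouse libraries.

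**Figure D2:**
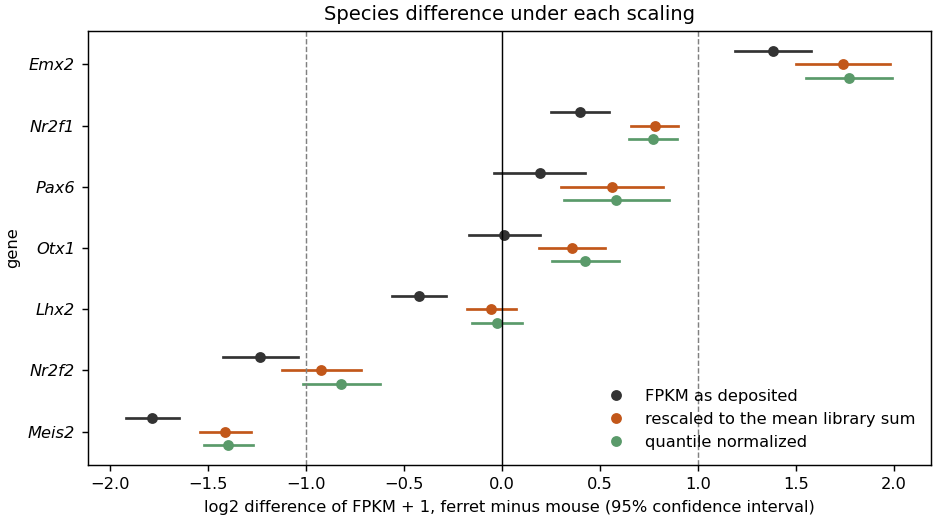
Log2 difference of FPKM + 1, ferret minus mouse, of the 7 members tested, with 95% confidence intervals from limma for FPKM as deposited (black), rescaled to the mean library sum (orange) and quantile normalized (green), with dashed lines at the limits of -1 and 1. Emx2 and Meis2 stay beyond the limits under each scaling shown, and Nr2f2 moves from -1.23 to -0.92 and -0.82.

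Like Nr2f2 and Meis2, most markers of some other cell types were lower in ferret astrocytes, beside 30.1% of all genes called lower. Neuronal and oligodendrocyte lineage markers, given below, were mostly higher among those tested. All 11 meningeal fibroblast markers tested were called lower, and the list summed to 137 and 121 FPKM in ferret libraries, against 1606 and 1584 in mouse libraries. Of the pericyte markers, 3 of 5 tested were lower and 1, Kcnj8, was higher, with sums of 42.2 and 38.9 FPKM in ferret and 256 and 271 in mouse libraries. Endothelial markers summed to 0.596 and 0.526 FPKM in ferret and to 28.2 and 28.8 in mouse libraries, of which Cdh5 alone made 22 and 22.5 while Cldn5 is listed at 0 in both mouse libraries. Of the microglial markers, 12 of 13 tested were lower, with sums of 76.0 and 75.6 FPKM in ferret and 710 and 697 in mouse libraries. Of the genes tested, 9 of the 13 microglial and 6 of the 11 meningeal fibroblast markers passed the limit of 1 FPKM in only one species, as did 2 of the 5 pericyte and all 3 endothelial markers. The part of these cells in the levels of Nr2f2 and Meis2 was not tested. In bulk RNA, fewer cells of a type and less RNA per cell cannot be told apart. The astrocyte markers were present in both species, as Gfap showed with 1481 and 1522 FPKM in ferret and 1429 and 1546 in mouse libraries, although 7 of the 11 were called lower and 1, S100b, higher in ferret astrocytes. The glutamate transporter gene Slc1a2 was near 0 in ferret libraries, at 0.133 and 0.178 FPKM against 47.1 and 51.8 in mouse libraries, and the lipoprotein gene Apoe had 11.8 and 12.3 FPKM in ferret against 3035 and 3315 in mouse libraries. Of the 11 astrocyte markers, Slc1a2 alone passed the limit of 1 FPKM in only one species.

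Within each library, the 9 members divided their summed FPKM differently. The sum itself was similar, at 116 and 114 FPKM in ferret libraries, against 129 and 135 in mouse libraries. Nr2f1 took 33.1% and 35.4% of it in ferret and 22% and 22.8% in mouse libraries. Emx2 took 17.9% and 16.3% in ferret and 5.79% and 4.72% in mouse libraries. Meis2 took 10.9% and 10.8% in ferret and 34.8% and 33.8% in mouse libraries. Lhx2 held between 12.1% and 14.8% in all 4 libraries, and Otx1 between 5.23% and 6.57%. Nr2f2 took 2.06% and 2.34% in ferret and 5.96% and 5.08% in mouse libraries.

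**Figure D3:**
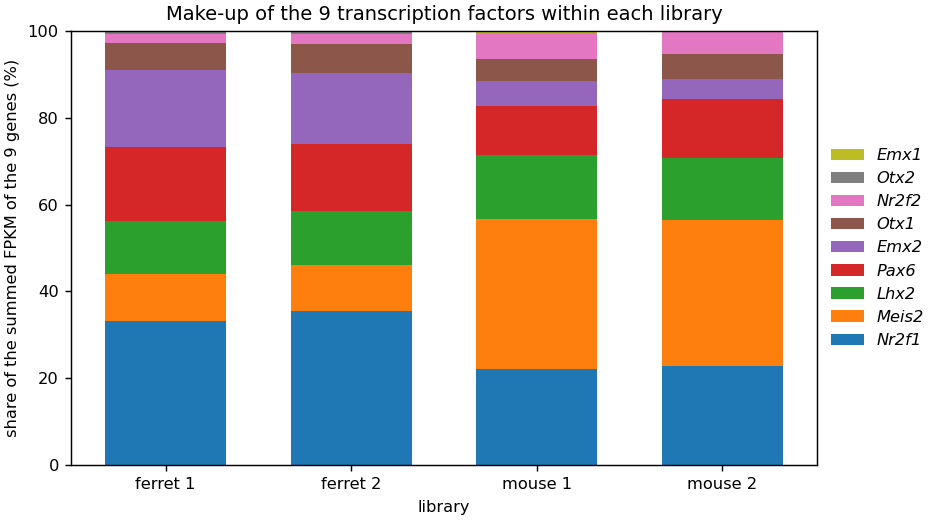
Share (%) of the summed FPKM of the 9 transcription factors that each took within each of the 4 libraries. Meis2 fills 34.8% and 33.8% of the mouse bars and 10.9% and 10.8% of the ferret bars, while Emx2 fills 17.9% and 16.3% of the ferret bars.

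Genes whose proteins resemble the members or are known to work with them were compared as well, at the level of RNA. Of 23 close homologs and cofactors, 17 were shared and 13 tested. Of these 4 were called lower in ferret astrocytes and 0 higher by limma. At an unadjusted p under 0.05 by limma, without the log2 limit, 8 were lower and 2 higher. The 2 higher also had an adjusted p under 0.05 by limma. The list had a median log2 difference of -0.33, beside -0.35 for all genes, and 3 of the 13 were tested through one species only. Ldb1, the adaptor that LIM homeodomain proteins such as Lhx2 need, had 17.9 and 19.8 FPKM in ferret and 43.2 and 42.7 in mouse libraries, or -1.15 on the log2 scale (adjusted p = 8.53e-08 by limma). Lmo2 at -2.28, a protein that binds the same adaptor, and Pbx4 at -1.36 were also called lower, but both passed the limit of 1 FPKM only through their mouse values. Meis1, the homolog of Meis2, had 2.68 and 2.89 FPKM in ferret and 3.78 and 3.76 in mouse libraries and was not called.

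Of the dorsal forebrain list, 14 of 25 genes were tested, of which 4 were called higher and 8 lower in ferret astrocytes. Their median log2 difference was -1.03, but 5 of the 14, all called, passed the limit of 1 FPKM in only one species, Tfap2c and Zic1 among them. Tfap2c, a factor of basal progenitors, had 10.5 and 10.4 FPKM in ferret and 0.119 and 0.0815 in mouse libraries. Zbtb20, a factor of the hippocampus and of astrocyte formation, had 4.93 and 4.72 FPKM in ferret and 31.8 and 33.3 in mouse libraries. Zic1, of the medial forebrain and the meninges, had 0.706 and 0.460 FPKM in ferret and 24.3 and 23.3 in mouse libraries, and Zic2 differed in the same direction by a log2 value of -2.02. The highest gene of the list, Lmo4, had 122 and 111 FPKM in ferret and 62.0 and 62.4 in mouse libraries and was not called.

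The ventral forebrain list differed from gene to gene. Its 18 shared genes summed to 50.9 and 52.7 FPKM in ferret libraries, against 6.18 and 5.97 in mouse libraries. Of 9 tested, 6 were called higher and 0 lower by limma. The other 3 had an adjusted p under 0.05 by limma but did not reach the log2 limit for a call. Six3 at 0.81 and Zfhx3 at 0.59 were higher, and Lhx6 at -0.84 (adjusted p = 2.74e-06 by limma) was lower. However, 8 of the 9 passed the limit of 1 FPKM in only one species, so that the count of calls supports nothing by itself. Most of the ferret sum came from Dlx1, Dlx2 and Nkx2-2. Dlx1, a homeobox gene of ventral forebrain and of interneurons, had 17.0 and 19.0 FPKM in ferret and 0.464 and 0.222 in mouse libraries. Dlx2 had 11.8 and 10.8 FPKM in ferret and 0.674 and 0.583 in mouse libraries, and Nkx2-2, which is also made in oligodendrocyte precursors, had 10.8 and 11.6 FPKM in ferret and 0.692 and 0.808 in mouse libraries. Gsx2 differed by a log2 value of 1.86. In the other direction, Lhx6, a factor of interneurons, had 0.422 and 0.476 FPKM in ferret and 1.63 and 1.57 in mouse libraries. Of the genes under 1 FPKM in both species, Vax2, Ebf1 and Sp9 had lower values in ferret libraries, and Dlx5 and Dlx6 had higher ones. Meis2 and Nr2f2, the members best known from ventral forebrain, were called lower. The neuronal markers shared by the species summed to 9.57 and 9.29 FPKM in ferret and to 2.12 and 2.41 in mouse libraries, and the 3 of them tested, Syt1, Dcx and Gad1, were called higher in ferret astrocytes, although 2 of them, Dcx and Gad1, were tested only through their ferret values, while Neurod6 of cortical excitatory neurons stood under 0.05 FPKM in all 4 libraries. Oligodendrocyte lineage markers summed to 89.7 and 96.4 FPKM in ferret and to 23.6 and 21.4 in mouse libraries. By limma, 3 of 7 tested were called higher and 0 lower. Of the 7, 2 passed the limit of 1 FPKM in only one species, the called Sox10 among them. The other 4 had an adjusted p under 0.05 by limma but did not reach the log2 limit for a call. Pdgfra at 0.77 and Mag at 0.69 on the log2 scale were higher, Mag being tested only through its ferret values. Olig2, with 4.92 and 5.18 FPKM in ferret and 9.62 and 9.80 in mouse libraries, and Cspg4, at -0.47 on the log2 scale, were lower. The shaking step was meant to remove oligodendrocytes and microglia. By immunostaining in serum medium, the paper counted mostly astrocytes in both species, with some microglia in both and some neurons in ferret cultures. The part of neuronal and oligodendrocyte lineage cells in the ventral factors was not tested.

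Of the 26 shared factors of the thalamus, midbrain, hindbrain and spinal cord, 21 stayed under a mean of 1 FPKM in both species. The list summed to 18.8 and 19.4 FPKM in ferret and to 10.8 and 10.1 in mouse libraries. The other 5 were tested, 4 of them through one species only, which holds for both called genes, with 1 called higher, Irx5, at 4.81 and 4.86 FPKM in ferret and 0.411 and 0.632 in mouse libraries, and 1 lower, Lmx1b, at 0.0343 and 0.0245 in ferret and 1.18 and 0.986 in mouse libraries. Lmx1b lost its call without mouse replicate 1, since its mean then fell under the limit of 1 FPKM. The highest gene of this list was Tcf7l2, with 8.89 and 8.57 FPKM in ferret and 5.03 and 4.44 in mouse libraries, which gave a log2 difference of 0.76. Ependymal markers, the last list of other cells, summed to 23.3 and 22.2 FPKM in ferret and to 61.5 and 66.1 in mouse libraries, mostly from Foxj1. Of 2 tested, 1 was called lower, Rsph1, which passed the limit of 1 FPKM only through its mouse values.

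**Figure D4:**
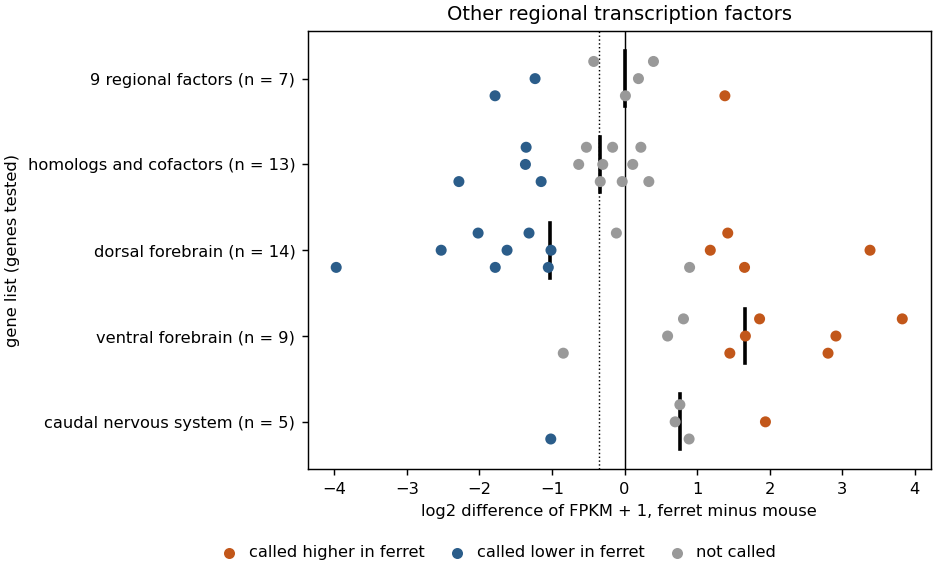
Log2 difference of FPKM + 1, ferret minus mouse, of the genes tested in each list, coloured by call from limma, with a thick line at the median of the list and a dotted line at the median of all genes (-0.35). Of the genes plotted, 8 of the 9 ventral (median 1.67), 5 of the 14 dorsal and 4 of the 5 caudal genes passed the limit of 1 FPKM in only one species, as did 3 of the 13 homologs and cofactors. Each of these was bound to be higher in the species where it passed.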

How the data were processed

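RNA-seq libraries of cultured astrocytes, 2 per species, were compared. Per the labels and the methods, the authors aligned reads with STAR (2.7.0f), quantified genes with Cufflinks (2.2.1) on the Ensembl annotation of each species, and deposited one FPKM per gene. The read counts that the study lists in its supplement were not used here. Here symbols were matched in upper case, and for the 7 ferret and 13 mouse shared symbols with several values the one highest on average was kept. The species difference was fitted by limma (3.58.1, R 4.3.3, with a trend) on log2(FPKM + 1), which understates changes of low genes. The fit was tested on simulated data. The FPKM files give no depth, and their low-value steps gave only the ratio of replicate 2 to replicate 1 in FPKM per fragment, 1.17 in ferret and 0.829 in mouse libraries. Species, annotation and culture cannot be told apart.

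Members, gene lists and tests were chosen with earlier results of these data known. The genes named were all members, of each list up to 4 called genes with the widest absolute difference and up to 2 with the highest mean, and for the leading member of each species the 2 genes of the factor lists nearest in Euclidean distance. Gfap, S100b, Sox9, Aldoc, Meis1, Ttr, Prlr, Lhx6, Vax2, Ebf1, Sp9, Olig2, Cspg4, Cldn5 and Neurod6 fall outside this rule and were named after their values were seen. The same holds for Six3, Zfhx3, Dlx5, Dlx6, Pdgfra and Mag. Some genes that the rule names, and the likeness to them, are not reported here. Alternatives were a pseudocount of 0.1, no filter, rescaling to the mean library sum, quantile normalization, a replicate block, summed values of a symbol, and each library left out.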

Additional observations from a re-analysis of the deposited data

How the results depend on the processing

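Of 74 alternative values of the members' log2 differences, 70 kept their side of the limit for a call, 2 lost it and 2 passed it. For the members in the main fit, no filter, the replicate block and summed values of a symbol left the log2 difference unchanged. These settings could change only its p, so their values add little to the count of 70. Nr2f2 lost its call after rescaling to the mean library sum and after quantile normalization, which left 1 member called lower in each instead of 2. The shift of all genes under these scalings is built into them. Quantile normalization gave 2107 genes higher and 2040 lower over all genes, against 1336 and 3069. Under rescaling and quantile normalization, in that order, the dorsal forebrain factors called lower numbered 5 and 5 instead of 8, the homologs and cofactors called lower 2 and 1 instead of 4, the caudal factors called higher 3 and 4 instead of 1, and the caudal factors called lower 0 and 0 instead of 1, with 1 lower at an unadjusted p under 0.05 by limma in each. A pseudocount of 0.1 gave 1 ventral forebrain factor lower and 3 caudal factors higher. With each library left out in turn the caudal factors called lower numbered 0 to 1, and the members' counts stayed at 1 and 2. The lone library of a species was then taken to vary like the other species. The replicate number as a block kept 1 member higher and 2 lower, with 1342 and 3072 over all genes. The numbers pair nothing by design, and the differences between duplicates of the species correlated at 0.0099 over 10204 genes, which are not independent. At the low end, where the FPKM files give no depth, Emx1 and Otx2 passed the limit for a call with a pseudocount of 0.1 (-1.84 and 2.98, both chosen after seeing the data) and not with 1, also after rescaling (-0.35 and 0.92).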
